A study of Mus musculus with 24 samples.

Results

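The 9 genes described here make, limit and connect skeletal muscle. They are the muscle transcription factors Myod1, Myog and Myf6, the satellite cell factor Pax7, the growth inhibitor Mstn, the acetylcholine receptor subunits Chrna1, Chrne and Chrng, and the receptor kinase Musk. The genes were chosen by name, and every non-control probe whose accession belongs to one of them was taken. This gave 10 probes for 9 genes, out of 55681 probes and 21368 named genes on the array. Chrna1 has 2 probes, and the one with the higher mean level over all arrays stands for the gene.

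RNA came from male mice of a line with the point mutation I312R in Rap1, the gene of a telomere protein, made with CRISPR/Cas9 and backcrossed 4 times to the strain C57BL/6N. The mutant RAP1 protein cannot be held at telomeres by its partner TRF2. There were 3 wild-type mice (WT, labelled RAP1 WT) and 3 homozygous knockin mice (Rap1 KI/KI, labelled RAP1 MUT), and the labels name no treatment for either group. Skeletal muscle, heart, brain and liver of the same 6 mice were each hybridized to a 1-color array, which gave 24 arrays. WT1, WT2, WT3, KI1, KI2 and KI3 name the single mice. One mouse of each genotype, WT1 and KI1, was 5 months of age, and the remaining 4 were 2 months of age. The knockin is present in all cells from conception, so the tissues of a mouse share it. A point mutation need not change the amount of the Rap1 transcript, so no probe of the array checks the genotype. Which skeletal muscle was taken is not stated.

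Myod1 and Myf6 set and keep the muscle fate of precursor cells, and Myog drives their fusion into fibers. Pax7 marks satellite cells, the stem cells that lie along each fiber, and myostatin, the product of Mstn, is secreted by fibers and limits their growth. At the neuromuscular junction, where a motor neuron contacts the fiber, MUSK gathers acetylcholine receptors under the nerve ending. The receptor holds the gamma subunit (Chrng) in the fetus and the epsilon subunit (Chrne) in the adult, while the alpha subunit (Chrna1) is part of both forms.

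The MyoD family binds the E-box, CANNTG, a motif that reads the same on both strands. Myog and the receptor subunits are textbook targets of the family, so the sequence just before the start of these 4 genes is shown. Each is the 250 bases before the transcript start of the gene in a table of RefSeq promoters on GRCm38.p6, written 5′ to 3′ along the strand of the gene, with every E-box in capitals. The table held such a stretch for 7 of the 9 genes, all but Myod1 and Myf6. For Chrne, Musk and Pax7 the annotated gene begins upstream of that start, so that the near end of the Chrne stretch, most of the Musk stretch and all of the Pax7 stretch lie within the gene.
Myog, chr1:134289754-134290003, plus strand: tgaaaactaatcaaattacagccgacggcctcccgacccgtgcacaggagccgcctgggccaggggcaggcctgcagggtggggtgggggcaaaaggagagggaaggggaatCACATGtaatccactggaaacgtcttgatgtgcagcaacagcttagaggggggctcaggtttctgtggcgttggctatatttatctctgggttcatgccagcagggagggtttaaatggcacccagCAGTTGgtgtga
Chrna1, chr2:73580339-73580588, minus strand: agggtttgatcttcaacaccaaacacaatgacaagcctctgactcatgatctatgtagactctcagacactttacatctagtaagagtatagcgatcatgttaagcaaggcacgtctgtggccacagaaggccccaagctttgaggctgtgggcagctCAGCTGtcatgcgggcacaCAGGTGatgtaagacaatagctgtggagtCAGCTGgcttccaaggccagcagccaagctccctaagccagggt
Chrne, chr11:70619195-70619444, minus strand: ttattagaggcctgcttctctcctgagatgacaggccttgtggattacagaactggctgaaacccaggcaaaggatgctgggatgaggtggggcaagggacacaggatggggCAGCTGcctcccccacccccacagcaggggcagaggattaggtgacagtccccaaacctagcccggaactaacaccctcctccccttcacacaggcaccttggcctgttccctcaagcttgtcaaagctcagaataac
Chrng, chr1:87205561-87205810, plus strand: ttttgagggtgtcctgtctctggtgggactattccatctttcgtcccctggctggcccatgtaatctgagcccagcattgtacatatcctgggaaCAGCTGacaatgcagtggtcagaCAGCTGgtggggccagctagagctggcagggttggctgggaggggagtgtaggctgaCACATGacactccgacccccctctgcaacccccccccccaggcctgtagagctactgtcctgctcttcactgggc

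Counted from that transcript start, the first base of the E-boxes lay at -138 and -12 in Myog, at -92, -73 and -44 in Chrna1, at -138 in Chrne, and at -155, -132 and -75 in Chrng. Mstn held 4 E-boxes, at -229, -174, -52 and -19, and Musk held 3, at -177, -100 and -68. The Pax7 stretch, within the gene, held none. An E-box stood in 66.22% of all 32851 stretches of the table, so its presence alone sets none of these genes apart. At least 3 E-boxes were found in 12.21% of them. The form CAGCTG, which is one kind of E-box and is counted among them, occurred in 13.00% of all stretches and, at 2 or more places, in 1.26%. Chrna1 held it at -92 and -44, Chrng at -155 and -132, Chrne at -138 and Musk at -68. The N-box CCGGAA, read on either strand and found in 12.03% of all stretches, stood at -76 in Chrne, the subunit of the adult junction, and in no other member. These matches describe letters, and the arrays do not measure binding to them.

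Levels are given on the log2 scale, relative to the 75th percentile of the signals on the same array, so that 0 is the level of that percentile. Differences in level are taken between samples for 1 probe. Levels of different probes are set side by side only to choose the probe of a gene, to rank list genes and to sum markers. The 75th percentile itself was 471 to 529.2 signal units in muscle, 569 to 1107 in heart, 874 to 1366 in brain and 573 to 1389 in liver. This scaling therefore moves all muscle levels up by 0.69 against heart, 1.15 against brain and 0.98 against liver. Between 56.5% and 72.7% of the probes of an array were well above background, the call the scanner software makes for each spot. Muscle and heart RNA were extracted with another kit than brain and liver RNA, and slide 3 held all muscle arrays with heart arrays of WT3 and KI3. Cardiac muscle markers summed to 1890 to 3410 times the 75th percentile in heart and 1.22 to 5.85 times in muscle, and fast fiber markers to 4680 to 5900 times in muscle. Hepatocyte markers summed to 1900 to 3570 times in liver, and 9 neuron markers to 209 to 378 times in brain.

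Of the 9 genes, 8 had their highest level in skeletal muscle, and Chrng had its highest level in liver. Each of the 27 comparisons of muscle with another tissue was called, meaning that its adjusted p in limma was under 0.05 (two-sided, adjusted over 42463 probes), 26 with muscle higher and 1, Chrng against liver, with muscle lower. In all 27, every muscle array lay on one side of every array of the other tissue. The share of all probes separated in this way was not counted, so this separation is a description. Across all tested probes, muscle was called higher than heart for 22.4%, than brain for 41.4% and than liver for 36.3%, and lower for 21%, 28.7% and 34.9%. The median difference of the 9 genes was 7.24 against heart, 6.89 against brain and 6.72 against liver, or 5.77, 5.97 and 6.14 with genes below background in the other tissue at the bounds given with them, while the medians over all tested probes were 0.068, 0.30 and 0.064. In whole tissue, fewer cells of a type and less RNA per cell cannot be told apart.

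**Figure D1:**
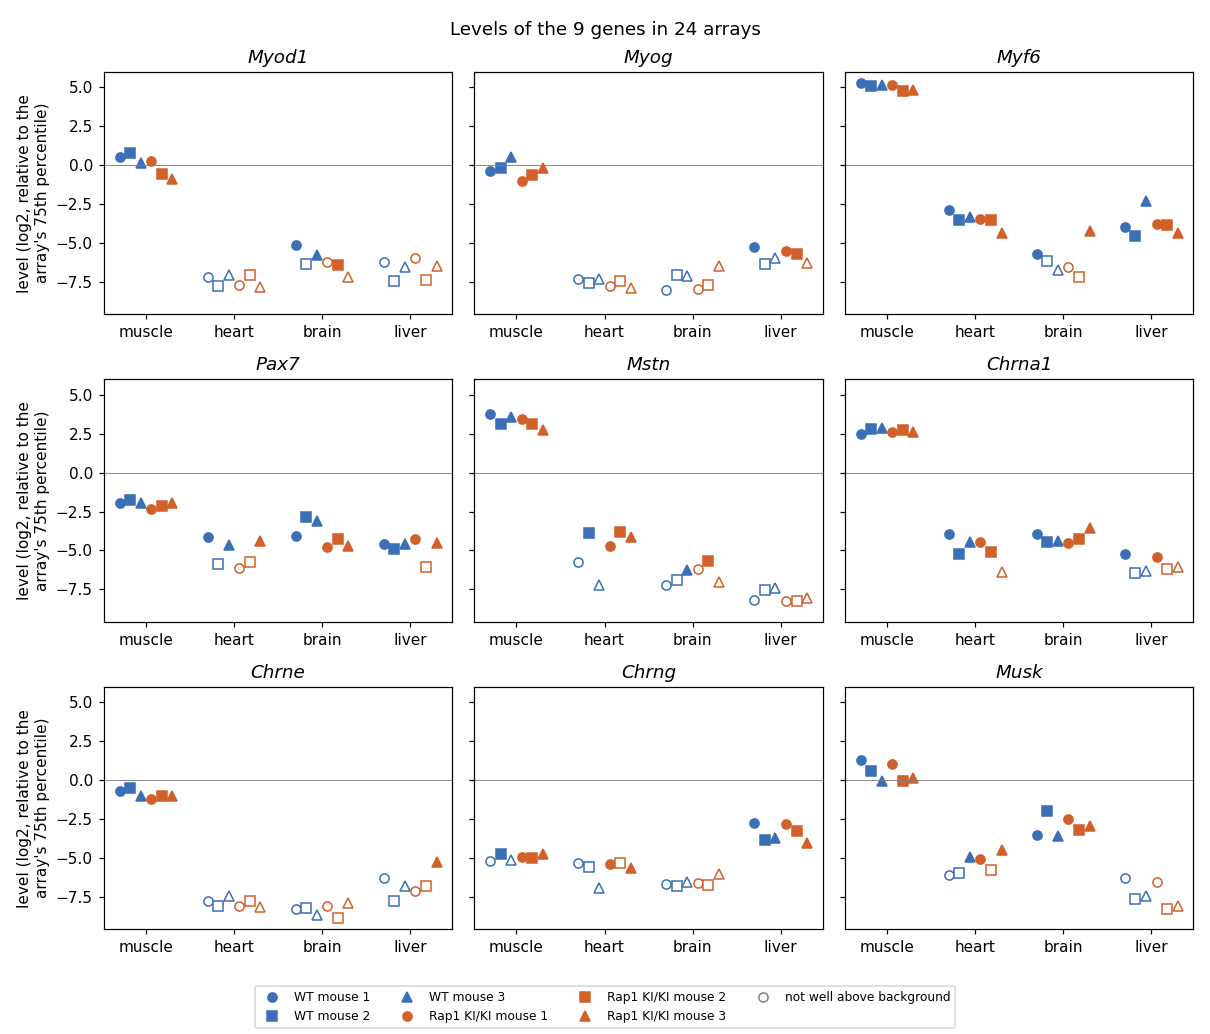
Level of each of the 9 genes (vertical axis, log2, 0 being the 75th percentile of an array) on the 24 arrays, by tissue, with 1 point per mouse, blue for WT and orange for Rap1 KI/KI. Hollow points were not well above background. Muscle points lie above all others in 8 panels, and the Chrng panel has liver highest.

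Myf6, the factor that remains most active in mature fibers, was well above background on all muscle, heart and liver arrays. Its muscle level was 5.29, 5.08 and 5.17 in WT1, WT2 and WT3, and 5.18, 4.78 and 4.85 in KI1, KI2 and KI3. The heart level ran from -4.34 through a median of -3.48 to -2.85 and the liver level from -4.52 through -3.88 to -2.29. Muscle exceeded heart 378-fold (8.56, SE 0.41, adjusted p = 2.55e-12 in limma) and liver 459-fold (8.84, SE 0.41, adjusted p = 2.32e-13 in limma). Heart and liver overlapped, with a difference of 0.28 that did not pass the test (limma, adjusted p = 0.56). In brain, Myf6 was well above background on 2 of 6 arrays, at -5.69 in WT1 and -4.24 in KI3, and the fitted difference of muscle from brain was 11.15 (SE 0.41).

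Myod1 and Myog, the factors that begin and complete differentiation, were measured well above background on every muscle array. Each is spotted 10 times, and the SD between the spots of a muscle array was at most 0.115 for Myod1 and 0.0819 for Myog. Myod1 levels in muscle were 0.53, 0.79 and 0.12 in WT and 0.27, -0.55 and -0.88 in Rap1 KI/KI mice, in the order of their numbers. Myog levels were -0.38, -0.20 and 0.56 in WT and -1.01, -0.64 and -0.15 in Rap1 KI/KI mice. The spread between mice was thus several times that between spots of the same array. Neither gene was well above background on any heart array, and muscle was at least 54.6-fold higher for Myod1 and at least 42.8-fold higher for Myog. These bounds set the dim group at the lowest signal among probes well above background, or at the signal of the probe itself where that was higher.

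Outside muscle, Myod1 was detected only in brain and Myog only in liver, each on 3 of 6 arrays. Myod1 passed the background call in the brains of WT1 at -5.10, WT3 at -5.74 and KI2 at -6.43, and on no liver array. Myog passed it in the livers of WT1 at -5.28, KI1 at -5.52 and KI2 at -5.72, and on no brain array. Muscle exceeded brain 75.1-fold for Myod1 (6.23, SE 0.30) and at least 62.9-fold for Myog. Against liver it was at least 70.4-fold higher for Myod1 and 46.7-fold higher for Myog (5.54, SE 0.27).

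Pax7 had the smallest difference from muscle to the other tissues among the 8 genes highest in muscle. Its muscle level was -1.93, -1.78 and -1.93 in WT and -2.36, -2.12 and -1.95 in Rap1 KI/KI mice. Brain came next, at -4.08, -2.87 and -3.11 in WT and -4.78, -4.29 and -4.68 in Rap1 KI/KI mice, all well above background. Pax7 also marks some neurons of the midbrain, and the brain level was 1.18 above heart (limma, adjusted p = 0.00486) and 0.87 above liver (limma, adjusted p = 0.0267), with overlapping arrays in both cases. Muscle exceeded brain 3.88-fold (1.96, SE 0.34, adjusted p = 4.42e-05 in limma), heart 8.82-fold and liver 7.08-fold. With the slide as a block, the excess over brain was 0.79 (limma, adjusted p = 0.26) and that over liver 1.20 (adjusted p = 0.203), and neither was called. The other 6 satellite cell markers used summed to 51.6 to 61.8 times the 75th percentile in WT muscle and 50.8 to 54.7 times in Rap1 KI/KI muscle. Most of that sum was Itga7, an integrin gene also active in fibers, and in heart, which has no satellite cells, the list summed to 64.5 to 100.

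Mstn, whose loss enlarges muscle in cattle and mice, was at 3.76, 3.10 and 3.60 in WT muscle and 3.47, 3.11 and 2.72 in Rap1 KI/KI muscle. It was well above background in the hearts of WT2, KI1, KI2 and KI3, at -3.84, -4.74, -3.81 and -4.13, and in the brains of WT3 at -6.28 and KI2 at -5.70. No liver array measured it. Muscle was 294-fold above heart (8.20, SE 0.39), measured on 4 of 6 arrays there, and at least 717-fold above liver. The fitted difference from brain, with 2 of 6 arrays measured, was 9.84 (SE 0.39). Heart was in turn 1.63 above brain (limma, adjusted p = 0.0011) and at least 2.44-fold above liver. The adjusted p of 1.23e-06 in limma for heart against liver belongs to the fitted difference, not to this bound.

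The alpha subunit gene Chrna1 varied little in muscle, with an SD over the 6 mice of 0.147 for its first probe and 0.283 for the other. Its levels there were 2.47, 2.82 and 2.86 in WT and 2.63, 2.76 and 2.62 in Rap1 KI/KI mice. It was also well above background on 6 of 6 brain, 5 of 6 heart and 2 of 6 liver arrays. Muscle lay 195-fold above heart and 118-fold above brain (differences 7.61 and 6.89, each SE 0.30). The fitted difference from liver, where 4 of 6 arrays were near background, was 8.64 (SE 0.30). The other Chrna1 probe was well above background on all muscle and all brain arrays and on no heart or liver array. It placed brain at least 1.88-fold above heart. The adjusted p of 1.46e-09 in limma belongs to the fitted difference of the 2 tissues, not to this bound. With the first probe, brain was 0.72 above heart (adjusted p = 0.0394 in limma) and heart 1.04 above liver (adjusted p = 0.00498 in limma), with overlapping arrays. Chrna1 overlaps the long noncoding RNA gene Gm30940, and which of them each probe reads was not checked.

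The epsilon subunit gene Chrne was well above background on all 6 muscle arrays, at -0.68, -0.47 and -0.99 in WT and -1.22, -1.03 and -1.02 in Rap1 KI/KI mice. Outside muscle the liver of KI3, at -5.27, was the only array of the other 18 on which it passed. Muscle was at least 28.2-fold above heart, at least 41.5-fold above brain, and 5.77 above liver on the log2 scale (SE 0.28), with the 5 other livers near background. Chrne overlaps the gene 4930544D05Rik, and which of them the probe reads was not checked.

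The gamma subunit gene Chrng, the fetal partner of Chrne, was near background in muscle. Its muscle level was -5.16, -4.76 and -5.10 in WT, of which only WT2 was well above background, and -4.97, -4.97 and -4.75 in Rap1 KI/KI mice, all above. Liver was higher, at -2.75, -3.86 and -3.70 in WT and -2.81, -3.24 and -4.04 in Rap1 KI/KI mice, and all 6 livers were well above background. Muscle was lower than liver by a difference of -1.55 (SE 0.26, adjusted p = 2.69e-05 in limma), and the 2 tissues did not overlap. Heart was 2.29 below liver (adjusted p = 1.96e-07 in limma), and liver was at least 7.17-fold above brain. Chrng lies between Chrnd, the delta subunit gene, and Eif4e2, a translation factor gene.

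For Chrng the small differences turned on the scaling. Before scaling, its log2 signal averaged 4.02 in muscle (3.72 to 4.27), 3.97 in heart (2.25 to 4.73), 3.56 in brain (3.01 to 4.36) and 6.55 in liver (5.30 to 7.38). All muscle signals lay within the range of the heart signals, and their scaled difference of 0.74 (SE 0.26, adjusted p = 0.0267 in limma) was no longer called without WT2, WT3, KI1, KI2 or KI3, at 0.52 to 0.79 (adjusted p up to 0.112 in limma). Muscle against liver was -0.15 with normexp background correction (limma, adjusted p = 0.371) and -0.79 with the slide as a block (adjusted p = 0.272), and not called in either. Liver and muscle arrays shared no slide.

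**Figure D2:**
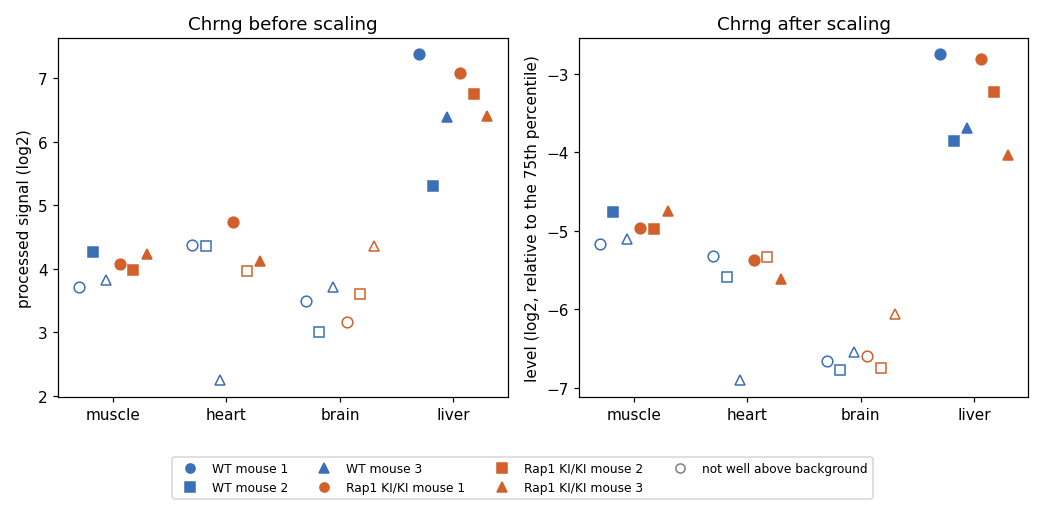
Chrng on the 24 arrays, as the log2 processed signal (left) and as the level after scaling (right), with 1 point per mouse and hollow points not well above background. Liver stands highest in both panels, at 5.30 or more before scaling, while muscle and heart share a range before scaling and separate after it.

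Musk levels in muscle were 1.32, 0.61 and -0.045 in WT and 1.03, -0.059 and 0.12 in Rap1 KI/KI mice. All 6 brains were well above background, at -3.50, -1.98 and -3.61 in WT and -2.50, -3.19 and -2.98 in Rap1 KI/KI mice, as were the hearts of WT3, KI1 and KI3 and no liver. Muscle exceeded brain 11-fold (3.45, SE 0.39, adjusted p = 1.42e-07 in limma), heart 58.9-fold (5.88, SE 0.39) and liver at least 103-fold. Brain in turn lay 5.38-fold above heart (2.43, SE 0.39, adjusted p = 1.53e-05 in limma), with every brain above every heart, and at least 9.42-fold above liver. Within slide 2, which held 4 arrays of each tissue, brain was 2.78 above heart.

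Within slide 3, where 6 muscle arrays lay beside 2 heart arrays, muscle stood above heart for all 9 genes. The differences were 7.51 for Myod1, 7.29 for Myog, 8.88 for Myf6, 2.52 for Pax7 and 8.95 for Mstn. They were 8.09 for Chrna1, 6.88 for Chrne, 1.31 for Chrng and 5.21 for Musk. Those of Myod1, Myog and Chrne rest on heart signals that were not well above background, and so does 1 of the 2 hearts for Mstn, Chrng (both WT3) and Chrna1 (KI3). Among heart, brain and liver, 22 of 27 comparisons were called. In the order brain, heart, liver, the tissue named first was higher in 11 of them and lower in 11. The 5 that were not called were brain against heart for Myog and Chrne, brain against liver for Myod1, and heart against liver for Myf6 and Pax7 (limma, adjusted p = 0.648, 0.152, 0.141, 0.56 and 0.429). Of the 22, 5 set tissues against each other in which neither was well above background on 3 or more arrays, so they compare signals near background. Over all tested probes, brain was called higher than heart for 27.7% and lower for 39.9%, higher than liver for 33.4% and lower for 45.6%. Heart was called higher than liver for 32.3% and lower for 34.4%.

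The question put to the genotypes is whether Rap1 KI/KI mice differ from WT mice in the levels of these genes. The study reports less RAP1 protein, and a larger cytosolic share of it, in Rap1 KI/KI embryonic fibroblasts and brains. The genotype therefore joins a changed location with a lower amount of RAP1, and the 2 cannot be told apart here. No member passed the adjusted test in any tissue, and neither did any probe of the array (0% of 32382 probes in muscle, 34848 in heart, 37836 in brain and 35240 in liver, limma). In muscle, 1 of 9 genes had an unadjusted p under 0.05, where 2.48% of all tested probes had one. All Rap1 KI/KI mice lay below all WT mice for 2 genes and above them for none, against 4.09% and 2.36% of all tested probes. With 3 mice against 3, an exact permutation test cannot go below 0.1, so such a separation is a description. The sign was negative for 8 of the 9, and the median difference was -0.26, beside -0.073 over all tested probes.

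Myod1 carried the largest muscle difference, -0.87 (SE 0.34, 95% confidence interval -1.68 to -0.062, unadjusted p = 0.0383 and adjusted p = 0.939 in limma). The values of KI2 and KI3 lay below all WT mice, and that of KI1 lay between WT3 and WT1. Without KI1 the difference was -1.20 and without KI3 it was -0.62 (adjusted p = 0.512 and 0.999 in limma). Myog differed by -0.60 (SE 0.33, interval -1.38 to 0.19), Mstn by -0.39 (SE 0.28, interval -1.05 to 0.27) and Myf6 by -0.24 (SE 0.20, interval -0.71 to 0.23). With 1 mouse left out, Myog ran from -0.82 to -0.32, Mstn from -0.58 to -0.20 and Myf6 from -0.36 to -0.16. The genotypes overlapped for each of these 4 genes.

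The 2 genes without overlap were Pax7 and Chrne. Pax7 differed by -0.26 (SE 0.20, interval -0.73 to 0.20), and the margin between WT1 at -1.93 and KI3 at -1.95 was smaller than the spread within either genotype. Chrne differed by -0.38 (SE 0.21, interval -0.88 to 0.12), with WT3 at -0.99 next to KI3 at -1.02. With 1 mouse left out, Pax7 ran from -0.36 to -0.15 and Chrne from -0.52 to -0.26. Chrna1 differed by -0.049 (SE 0.20, interval -0.52 to 0.42) with the first probe and 0.083 with the other. Chrng was the only gene with a positive sign, 0.11 (SE 0.20, interval -0.37 to 0.59), and Musk differed by -0.26 (SE 0.43, interval -1.26 to 0.74).

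**Figure D3:**
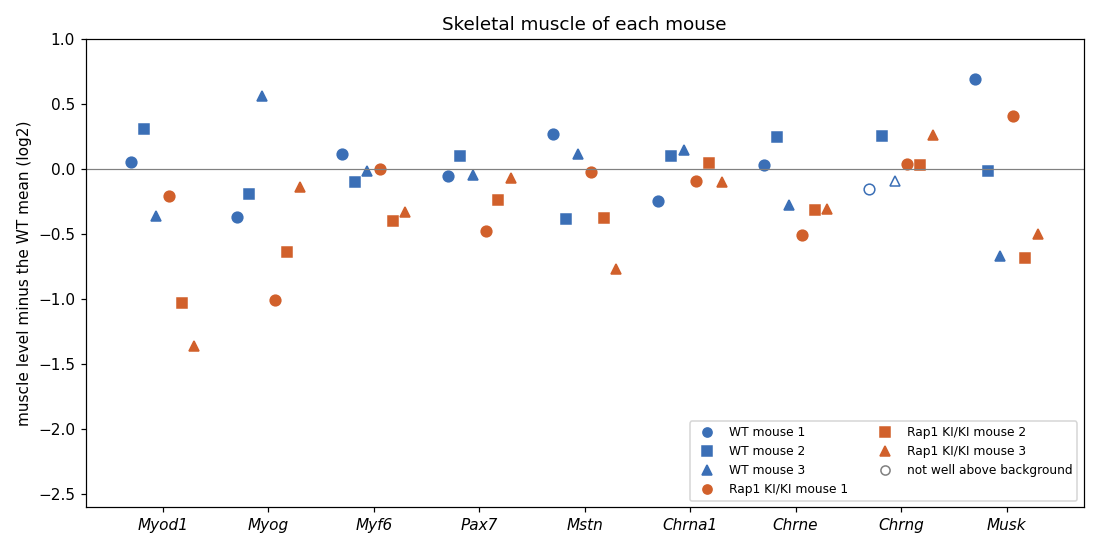
Muscle level of each gene minus its WT mean (vertical axis, log2), with 1 point per mouse, blue for WT and orange for Rap1 KI/KI, and hollow points not well above background. Pax7 and Chrne have all 3 orange points below all 3 blue ones by a narrow margin, and the other genes overlap.

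Markers of fiber type and of other cells differed between the muscle samples. Slow fiber markers summed to 7.53, 18.9 and 25.8 times the 75th percentile in WT1, WT2 and WT3, and to 529, 7.22 and 102 times in KI1, KI2 and KI3, with all 7 markers well above background on each array. KI1 also had the highest sum of 8 neutrophil markers, 96.1, against 1.59 to 3.88 in WT, 3.48 in KI2 and 13.9 in KI3. The 9 neuron markers summed to 63.7 in KI3, where all 9 were well above background, and to 23.6 to 31.7 in the other mice. Of these, KI1 had 7 of the 9 well above background, and the WT mice and KI2 had 3 or 4. Adipocyte markers ran from 194 to 1060 in WT and from 507 to 1460 in Rap1 KI/KI muscle. Astrocyte markers summed to 21.6 in KI3, where all 5 were well above background, and to 21.5 in KI2, where only 3 were. Their sum was 10.6 or less in the other mice. The other lists overlapped between genotypes, at 52.4 to 82 in WT and 71 to 98.7 in Rap1 KI/KI muscle for central myelin, 4.38 to 8.29 and 7.18 to 9.65 for peripheral myelin and Schwann cells, 10.4 to 95.2 and 26.1 to 124 for hepatocytes, 252 to 520 and 283 to 468 for fibroblasts, 15.2 to 19.9 and 11.9 to 24.9 for endothelium, and 0.138 to 0.197 and 0.176 to 0.28 for bone. Their part in the differences of the 9 genes was not tested. Without KI1 and KI3, which leaves 1 Rap1 KI/KI mouse assumed to vary like the WT mice, Myod1 differed by -1.03 (adjusted p = 0.456 in limma) and no member was called.

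**Figure D4:**
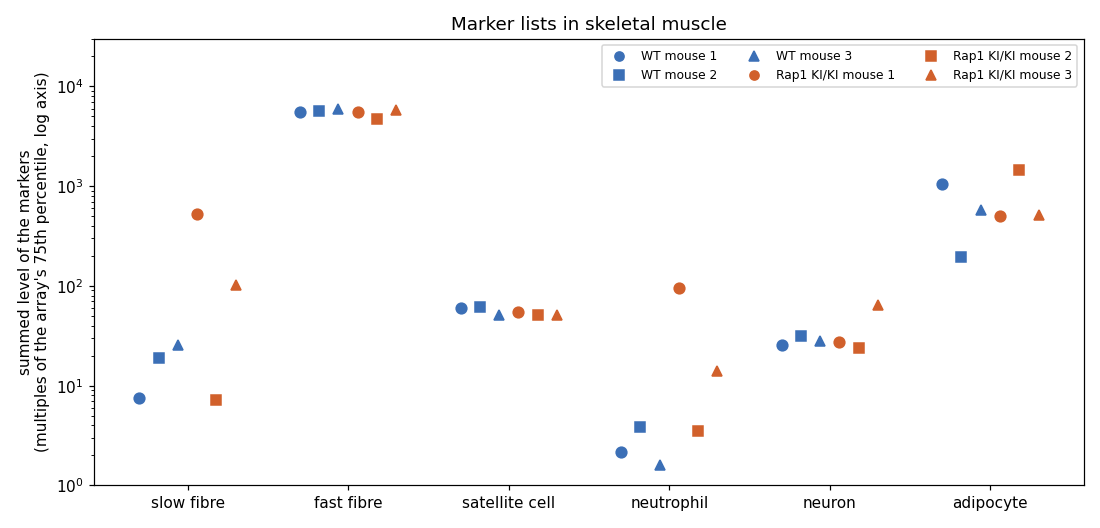
Summed level of 6 marker lists in muscle (vertical axis, multiples of the 75th percentile of the array, log scale), with 1 point per mouse. KI1 and KI3 stand highest for slow fiber and neutrophil markers and KI3 for neuron markers, while satellite cell sums stay between 50.8 and 61.8.

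In brain, 4 of the 9 genes were tested. Pax7 had an unadjusted p under 0.05, as did 2.62% of all tested probes, and all Rap1 KI/KI brains lay below all WT brains, as for 3.75% of probes (4% lay above). The difference was -1.23 (SE 0.35, interval -2.09 to -0.37, unadjusted p = 0.0124 and adjusted p = 1 in limma). The brains of WT1 and KI1, at -4.08 and -4.78, were on slide 1 and those of the younger mice on slide 2, and the Rap1 KI/KI values were lower within both. The difference was -0.57 with normexp background correction and -1.60 without WT1. Myod1 differed by -0.89 (SE 0.41, interval -1.87 to 0.095), Chrna1 by 0.18 (SE 0.30, interval -0.55 to 0.91) and Musk by 0.14 (SE 0.48, interval -1.01 to 1.30), all with overlap. The median was -0.37, beside -0.051 over all tested probes. Astrocyte markers summed to 52.2 to 69.2 in WT brains and to 61.5, 73.6 and 111 in KI1, KI2 and KI3. Neuron markers summed to 249 to 378 in WT brains and to 327, 323 and 209 in KI1, KI2 and KI3. All 6 hepatocyte markers were well above background in the brain of WT1, and 4 in each of the other brains. The part of these markers in the differences of the genes was not tested.

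Of the 9 genes, 5 were tested in heart. None had an unadjusted p under 0.05, where 7.51% of all tested probes did, and none separated the genotypes, where all Rap1 KI/KI mice were above in 6.03% and below in 8.68%. Mstn was well above background in 1 WT and 3 Rap1 KI/KI hearts and differed by 1.36 (SE 0.79, interval -0.51 to 3.24, adjusted p = 0.671 in limma). WT2, at -3.84, lay among the Rap1 KI/KI hearts. Myf6 differed by -0.53 (SE 0.32), Pax7 by -0.52 (SE 0.58), Chrna1 by -0.76 (SE 0.54) and Musk by 0.55 (SE 0.44). With 1 mouse left out, Mstn ran from 0.56 to 2.23, Myf6 from -0.70 to -0.25, Pax7 from -1.01 to -0.15, Chrna1 from -1.19 to -0.23 and Musk from 0.25 to 0.92. Adipocyte markers summed to 229 to 245 in WT and 283 to 671 in Rap1 KI/KI hearts. The mean level of these 7 markers was -2.36, 0.71 and 0.61 in the hearts of WT1, WT2 and WT3. It was 3.14, 0.73 and 4.17 in those of KI1, KI2 and KI3, so KI2 lay close to WT2. The part of these markers in the differences of the genes was not tested. In liver, 4 genes were tested, and Myog differed by 0.008, Myf6 by -0.40, Pax7 by -0.26 and Chrng by 0.073 (SE 0.34, 0.54, 0.47 and 0.41). None had an unadjusted p under 0.05, against 2.13% of probes, and none separated the genotypes, against 2.78% with Rap1 KI/KI above and 3.07% below.

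**Figure D5:**
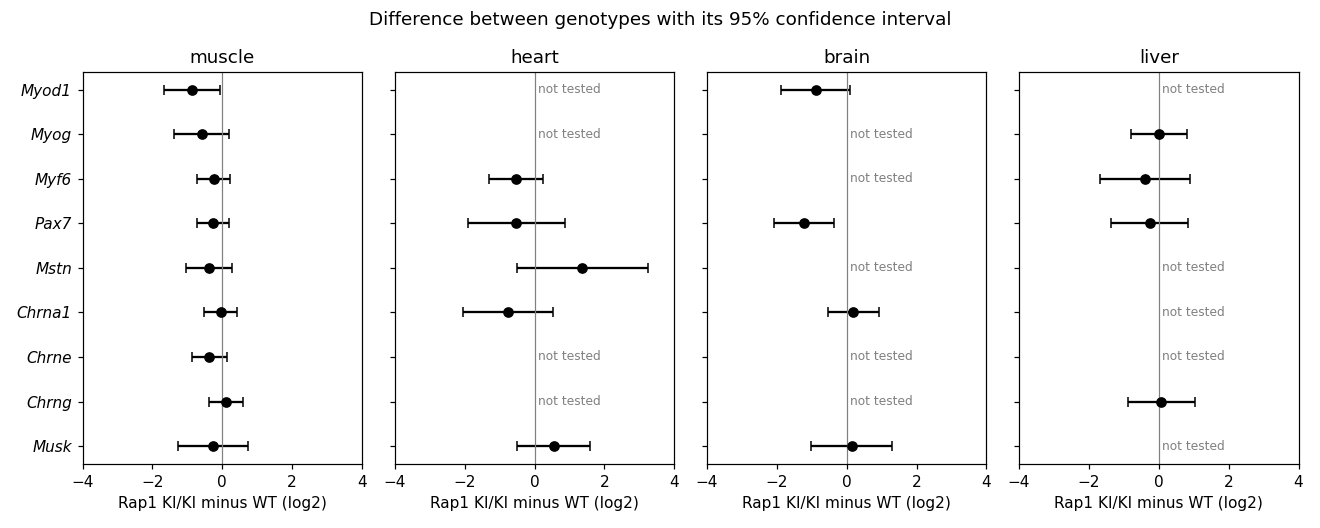
Difference between genotypes (horizontal axis, Rap1 KI/KI minus WT, log2) for each gene in each tissue, with its 95% confidence interval from limma. Genes well above background on fewer than 3 of 6 arrays are marked as not tested. The intervals of Myod1 in muscle and Pax7 in brain lie below 0 before adjustment.

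The genotype difference was also compared across tissues in 1 fit of all 24 arrays. No member was called for it, as was no probe of the array (0%), and none of the 9 had an unadjusted p under 0.05, where 2.93% of the probes had one. The lowest was that of Mstn (limma, unadjusted p = 0.102 and adjusted p = 1), whose difference was -0.39 in muscle and 1.36 in heart. Without WT2 the lowest over the 9 genes was an unadjusted p of 0.00268 (limma, adjusted p = 1). Age was looked at in muscle after the values were seen. Musk averaged 1.17 in the 5-month mice, WT1 and KI1, and 0.16 in the 4 younger mice, a difference of 1.02 (SE 0.25, unadjusted p = 0.00692 and adjusted p = 0.746 in limma, with genotype in the model). Both older mice lay above all younger ones for Musk, which is a description, as the share of all probes that do so was not counted. For the other 8 genes the unadjusted p was 0.0916 or more, and over all tested probes 5.92% were under 0.05 and 0% were called.

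Around the members stand lists of genes that act with them. Of 20 further regulators of the myogenic program, 8 were higher and 4 lower in muscle than in heart, 14 higher and 3 lower than in brain, and 14 higher and 3 lower than in liver, of 19 tested. Over all tested probes, the shares were 22.4% and 21% against heart, 41.4% and 28.7% against brain, and 36.3% and 34.9% against liver. Among those with the highest muscle levels were Id1, Mef2a, Notch3 and Cdh15. Cdh15, an adhesion molecule of satellite cells, was 7.35 above heart, 2.74 above brain and 5.46 above liver. Id1, which keeps MyoD from binding DNA, was lower in muscle than in heart by a difference of -1.08, and 1.53 above brain. Mef2a, a partner of the MyoD family, and Notch3 differed from heart by -0.12 and -0.27 and lay 1.49 and 2.05 above brain. Between genotypes in muscle none of the 19 had an unadjusted p under 0.05, against 2.48% of all tested probes. Their median was -0.17, beside -0.073 over all tested probes.

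Of 18 genes of the myostatin pathway, 10 were higher and 3 lower in muscle than in heart, 10 and 3 against brain, and 9 and 6 against liver. Over all tested probes, 36.3% were higher and 34.9% lower than in liver, 22.4% and 21% than in heart, and 41.4% and 28.7% than in brain. Acvr2b, the main receptor of myostatin, was 1.91, 2.07 and 2.34 above heart, brain and liver, and Smad3, which carries its signal, 2.28, 1.87 and 2.11 above. Smad4, the shared partner of SMAD3, was 0.76, 1.79 and 0.56 above. Ltbp3, which binds latent growth factors of this family, differed by 0.43 from heart (limma, adjusted p = 0.0607) and lay 1.74 above brain and 4.37 above liver. Bmp1, a protease that frees myostatin, was at -0.15 against heart and -1.87 against liver. Between genotypes in muscle none of the 18 had an unadjusted p under 0.05, against 2.48% of all tested probes. The receptors Acvr2a and Acvr1b were lower in all Rap1 KI/KI muscles, by differences of -0.37 and -0.40, as were 4.09% of all tested probes. The median of the list was -0.19, beside -0.073 over all tested probes.

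Of 26 junction partners, 8 were higher and 9 lower in muscle than in heart, 14 and 4 against brain, and 17 and 7 against liver. Beside these stand 22.4% higher and 21% lower of all probes against heart, 41.4% and 28.7% against brain, and 36.3% and 34.9% against liver. Rapsn, whose product anchors acetylcholine receptors, was 1.00, 1.68 and 0.69 above heart, brain and liver. The regulatory kinase subunit Prkar1a was lower than in heart and liver, by differences of -1.34 and -2.00. Etv5, a factor of genes active under the nerve ending, differed by 0.36 from heart, -0.67 from brain and 2.64 from liver. Dag1, which links the fiber to the matrix, differed by -0.25 from heart and lay 2.24 above brain. In muscle Dag1 was 4.34, 4.83 and 4.18 in WT and 4.12, 4.17 and 2.75 in Rap1 KI/KI mice (-0.77, SE 0.42, unadjusted p = 0.107 in limma). The genotypes did not overlap, by a narrow margin between WT3 and KI2. Dag1 was the 1 gene of the 22 tested with all Rap1 KI/KI mice below all WT mice, as were 4.09% of all tested probes. None of the 22 tested between genotypes had an unadjusted p under 0.05, against 2.48% of all tested probes. Their median was -0.19, beside -0.073 over all tested probes. The other receptor subunits were picked out after their values were seen. Chrnd, the neighbor of Chrng, was well above background on all muscle arrays and on no array of another tissue, and Chrnb1, the beta subunit gene, was 2.73, 4.91 and 4.62 above heart, brain and liver. Between genotypes in muscle they differed by 0.15 and -0.25.

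Of 16 genes that respond when a muscle loses its nerve, 7 were higher and 4 lower in muscle than in heart, 10 and 2 against brain, and 13 and 0 against liver, where the shares of all tested probes were 22.4% and 21%, 41.4% and 28.7%, and 36.3% and 34.9%. The muscle ubiquitin ligases Trim63 and Fbxo32 were 0.65 and 1.71 above heart and 11.25 and 5.13 above brain. Hdac4, a deacetylase of the denervation response, was 0.84 above heart and 2.97 above liver, and the cytokine receptor gene Tnfrsf12a differed by -0.64 from heart and 2.49 from brain. Myh8, a myosin of developing fibers, was 1.50 above heart and 9.91 above brain, and its probe may also read closely related myosins. Between genotypes in muscle none of the 16 had an unadjusted p under 0.05, against 2.48% of all tested probes. None separated the mice, against 2.36% of probes with Rap1 KI/KI above and 4.09% below. The median was -0.0076, beside -0.073 over all tested probes.

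Genes with the level pattern most like each member were ranked by Pearson's r over the 24 arrays among 18302 named genes. The arrays share 4 tissues and 6 mice, so r mostly follows the tissues. Mstn was most like Phka1, Tnnc2 and Cacng6 (each r 0.98), Chrna1 most like Dusp13 (0.99), Vgll2 and Lrrc38 (each 0.98), and Myf6 most like Ppp1r27 (0.99). Mybpc1 came first for Myod1 (0.98), Wdr70 for Myog (0.98), Tmem225 for Chrne (0.98) and Padi2 for Musk (0.97). The likeness was lowest for Pax7, with Nox1 and Pdzd7 at 0.91 and Il12a at 0.90, and Chrng was most like Tmed5 (0.97).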

How the data were processed

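The authors deposited, as intensity values, the processed signals of 1-color Agilent arrays, from which Feature Extraction had subtracted the background, with no normalization between arrays. A deposited table of the whole series holds score values, which are log10 processed signals turned into z-scores array by array (recomputed within 0.005), and served as an alternative. The study refers to an earlier publication for the array analysis. The normalization and test behind its calls are not given in the sources used here.

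The level of a probe is the log2 of its processed signal, averaged over its spots without control and outlier-flagged spots, less that of the 75th percentile over all probes of its array. Probes were named through their accession in RefSeq (28331 of 55681 probes, 27350 not named here). Genotypes were compared within each tissue, for probes that 3 or more of the 6 arrays measured well above background, with limma 3.58.1 in R 4.3.3 (statmod 1.5.0). Tissues, and genotype by tissue, were compared in 1 fit of all 24 arrays for probes that passed in any tissue. Tests were two-sided with Benjamini-Hochberg adjustment over all tested probes. For list genes with several probes, the probe with the highest mean level over all arrays stands for the gene. The number of arrays limits the precision. The genotype fit in muscle and the comparison of muscle with heart were tested on simulated data. Between genotypes in muscle, log2 changes of 1, 2 and 3 were recovered for 0%, 68% and 98% of 50 simulated probes each. In muscle against heart these shares were 16%, 98% and 100%. Changes of 4 were recovered for 100% in both. False calls numbered 14 in the genotype fit of 32258 probes and 7 in the tissue comparison of 42322 probes. The simulated spread of a probe was pooled over all tissues and averaged with the median variance, so it was not that of muscle alone. The other steps were not tested on simulated data.

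The members, the 4 pathway lists and the 14 marker lists were chosen with earlier results of these data known. All members are named, of each pathway list the 5 genes with the highest muscle level (some of which are not reported here), and of the likeness up to 3 genes per member. A marker with a missing spot on any array was left out of the sums, which left 9 of 10 neuron and 6 of 7 satellite cell markers.

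The same 6 mice gave all tissues, so the mouse served as a replicate block in an alternative. Deviations from the group means correlated between tissues of a mouse with r from -0.219 to 0.262 over 36 pairs (median 0.0473, 9 over 0.1, 42463 probes). The other alternatives were quantile normalization, normexp with an offset of 50 on the median signals (mean signals were not in the files used here), z-scores, the series table, other filters, trend and robust eBayes, age or slide as a block, a shared variance, other probes, 1 genotype only, arrays of 1 slide, and each mouse left out. The fit without KI1 and KI3 and that of age were added after seeing the data.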

Additional observations from a re-analysis of the deposited data

How the results depend on the processing

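With 3 mice per genotype the intervals of the differences are wide, and many levels outside muscle lay near background. Of the 54 comparisons between tissues, 49 were called, 49 with the mouse as replicate block (consensus correlation 0.0258), 40 with normexp, 41 with slide as a block, 43 in WT or in Rap1 KI/KI mice alone, 45 to 48 with 1 mouse left out and 45 without KI1 and KI3. No member was called between genotypes, or for genotype by tissue, under any alternative run, the replicate block included (0 calls). The lowest adjusted p over the alternatives was 0.456 in muscle, 0.46 in heart, 0.683 in brain and 0.736 in liver (limma). A filter on probes well above background on all 24 arrays left no member and gave no value. Muscle against the other tissues kept its sign in all 27 comparisons under each of these alternatives, and 24 to 27 of them were called. Those lost, besides the ones given with Chrng and Pax7, were Chrng against heart with z-scores (0.14 on their scale), the series table (0.14), WT alone (0.93), Rap1 KI/KI alone (0.55) and without KI1 and KI3 (0.65).

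Some differences between genotypes, none of them called, changed sign, and the cause was not tested. In muscle, Chrng was -0.042 with quantile normalization and -0.051 with normexp, and Chrna1 0.043 with quantile normalization, 0.027 with normexp, 0.043 without KI1 and KI3, 0.083 with the other probe and 0.017 as the mean of both. With 1 mouse left out, Chrna1 in muscle ran from -0.17 to 0.024, Musk in muscle from -0.60 to 0.085, Chrna1 in brain from -0.091 to 0.39, Musk in brain from -0.15 to 0.67, Myog in liver from -0.24 to 0.29, Chrng in liver from -0.20 to 0.42, Pax7 in liver from -0.60 to 0.31 and Myf6 in liver from -0.87 to 0.25. Musk in heart was -0.10 without KI1 and KI3. With normexp, Myog in liver was -0.28 and Chrng in liver -0.15.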

Other observations

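In the muscle of KI3, Nrg1, the neuregulin gene, was at -1.88 and in the other 5 muscles at -5.15 or lower. Ncam1, a cell adhesion gene that responds to denervation and is also active in neurons, was at 1.72 in KI3 and at -0.46 or lower in the other mice. These genes were singled out after their values were seen, and KI3 is the muscle in which all 9 neuron markers were well above background. The part of these markers in the levels of Nrg1 and Ncam1 was not tested.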
